A study of Mus musculus with 10 samples.

Results

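The genes described here build cholesterol and fatty acids and are driven by the sterol regulatory element binding proteins (SREBPs). They were taken by symbol from the table of gene levels: 26 genes of 24475, of which 14 belong to sterol synthesis and its control and 12 to fatty acid synthesis. All 26 were found, and all 26 had a mean of at least 0.5 RPKM (reads scaled to transcript length and to sequencing depth) over the 10 libraries, the filter that 13450 genes passed. The libraries were made from total RNA of pancreatic islets of C57BL/6 mice. In 5 of them the treatment was REGN1193 (R1193), a blocking antibody to the glucagon receptor (GCGR), and in the other 5 an isotype control antibody. Both groups thus had an antibody treatment, and the labels give 1 strain and no genotype difference. The antibody libraries are numbered 1 to 5 and the isotype libraries 6 to 10. Dose, duration, age, sex and pooling are not given in the labels, and nothing in them ties a library to 1 animal, so p-values measure the spread between these libraries, which may be partly technical.

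SREBPs are held in the endoplasmic reticulum by INSIG proteins while sterols are plentiful. When sterols run low they travel to the Golgi with their escort SCAP, are cut by a pair of proteases and enter the nucleus, where they switch on the genes of the mevalonate and sterol pathway and of low-density lipoprotein uptake. SREBP-2, the product of Srebf2, acts mainly on sterol genes, and SREBP-1c, a product of Srebf1, mainly on fatty acid genes, where insulin raises it in liver. In beta cells, cytosolic citrate and malate made from glucose carbon supply ATP citrate lyase and malic enzyme, and both have been studied in relation to insulin secretion.

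No sterol gene and no fatty acid gene passed the threshold between antibody and isotype islets (limma, Benjamini-Hochberg adjusted p under 0.05 over all 13450 tested genes). The share of all tested genes that passed was 0.409%, made up of 0.394% in the upward and 0.0149% in the downward direction. Log2 fold changes (antibody minus isotype, on the log2(RPKM + 0.5) scale) ran from -0.33 to 0.23 for the sterol genes and from -0.47 to 0.02 for the fatty acid genes. The median was -0.14 over the 14 sterol genes and -0.22 over the 12 fatty acid genes, beside -0.07 over all tested genes. Of the sterol genes 12 lay below 0 and of the fatty acid genes 9, beside 66.5% of all tested genes. That last share was 46.8% after median centring, where 10 sterol and 9 fatty acid genes still lay below 0, and the medians were then -0.07 and -0.14 beside 0.01 over all genes. With quantile normalization and trimmed mean scaling the share was 52.4% and 53.1%, with 10 and 11 sterol genes and 9 fatty acid genes each time below 0. At an unadjusted p under 0.05, limma counted 1 sterol gene lower (Srebf2), 3 fatty acid genes lower (Acly, Elovl5 and Acss2) and none of either list higher. The shares of all tested genes were 4.18% lower and 2.84% higher. With median centring, quantile normalization and trimmed mean scaling 0 sterol genes were lower at that p. The fatty acid genes lower were then 2, 1 and 2, beside 2.24%, 2.84% and 2.83% of all tested genes. Acly was the 1 member whose groups did not overlap, with every antibody library below every isotype library, as in 0.84% of all tested genes; no member had every antibody library above, as 1.14% of all tested genes did.

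**Figure D1:**
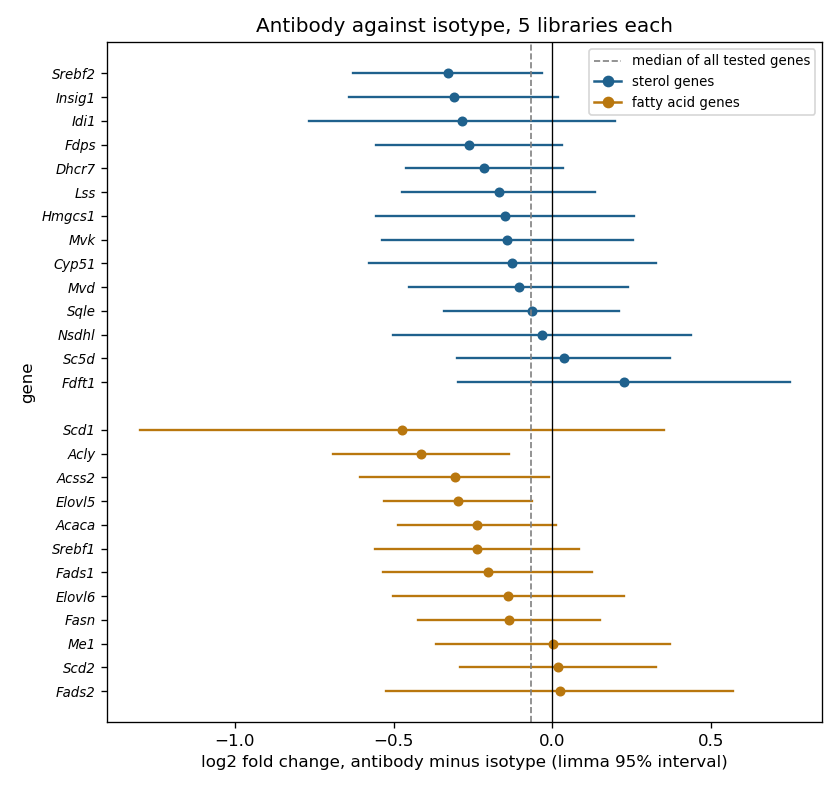
Log2 fold change of each gene, antibody minus isotype (horizontal axis), with limma's 95% interval, for 14 sterol genes (blue) and 12 fatty acid genes (orange); the dashed line is the median of all 13450 tested genes. Intervals that leave out 0 are those of Srebf2, Acly, Elovl5 and Acss2, and none of these passed after adjustment over all genes.

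The libraries held the endocrine hormones that define islets, with Ins1, Ins2, Gcg, Sst and Ppy together at 256127 to 446295 RPKM. Depth, estimated from the steps of the low values, was 14550000 to 18020000 reads in the antibody and 12270000 to 14820000 reads in the isotype libraries. The thinnest value among the 26 genes, that of Mvd in isotype replicate 6, corresponds to about 52 reads. Of 9 alpha cell markers 8 rose with the antibody by the same limma test and all 9 had groups that did not overlap (median log2 fold change 1.205), and 10 of 10 acinar markers had negative folds (median -0.57) with none passing. The beta cell markers had negative folds in 10 of 10 (median -0.44), also with none passing; after median centring 9 of 10 acinar and 9 of 10 beta cell markers lay below 0, and quantile normalization called 1 beta cell marker lower. In whole islets fewer cells of a type and less RNA per cell cannot be told apart. Antibody replicate 5 stood apart: it was the highest of the 10 libraries in 16.5% and the lowest in 28.4% of all tested genes. Isotype replicate 10 was the highest in 26.2%. Of 7 markers of adipocytes, which also make fatty acids, 2 passed the filter on low values (Fabp4 and Cfd). The sum of all 7 was 5.74 to 31.3 RPKM with the antibody and 7.86 to 23.8 RPKM with the isotype control, and most of it was Fabp4. Cfd, which encodes adipsin, was at 1.11 ± 0.76 against 0.11 ± 0.10 RPKM (SD, n = 5 each), without overlap of the groups (log2 fold change 1.28, unadjusted limma p 0.00117, adjusted 0.163). Plin1, a lipid droplet protein gene, was at 0.0296 to 0.291 RPKM with the antibody and at 0 to 0.0362 RPKM with the isotype control. Adipoq, which encodes adiponectin, lay between 0 and 0.165 RPKM and Lep, leptin, between 0 and 0.0208 RPKM. The part of such cells in the fatty acid values was not tested. Of 7 tested ductal markers 4 had negative folds, and none passed. At an unadjusted limma p under 0.05, 3 were lower: Krt19 (-1.32), Muc1 (-1.005) and Krt18 (-0.72). For Krt18 every antibody library lay below every isotype library. Sox9, the remaining negative fold (-0.05), was low at 0.78 ± 0.27 against 0.87 ± 0.48 RPKM (SD, n = 5 each), and Cftr did not pass the filter. Positive folds were those of Spp1 (0.77), Epcam (0.17) and Krt7 (0.07), and the median of the tested ductal markers was -0.05. The summed ductal level had a mean of 928 RPKM in antibody libraries against 893 in isotype libraries. With the mean log2 level of the ductal markers as a covariate the fatty acid median was -0.14 and the sterol median -0.12, beside -0.06 over all genes. Whether this level follows the content of duct cells was not tested.

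Among the sterol genes, which span the pathway from the first condensing steps to cholesterol, levels per length differed between genes by over an order of magnitude. Sqle, squalene epoxidase, which starts the oxygen-dependent part of the pathway, was highest with 49.1 ± 7.60 RPKM (SD, n = 5) in isotype islets, followed by Insig1 (44.4 ± 4.11) and the farnesyl diphosphate synthase gene Fdps (42.1 ± 7.59). The mevalonate kinase gene Mvk (3.85 ± 1.01) and the mevalonate diphosphate decarboxylase gene Mvd (3.43 ± 0.73) were lowest. Ordered by the mean over 10 libraries the genes ran Sqle, Insig1, Fdps, Fdft1, Hmgcs1, Srebf2, Cyp51, Sc5d, Idi1, Lss, Nsdhl, Dhcr7, Mvk and Mvd. The ranges of every pair of neighbours in this order overlapped. Idi1 was nonetheless above Lss, and Dhcr7 above Mvk, in all 10 libraries.

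**Figure D2:**
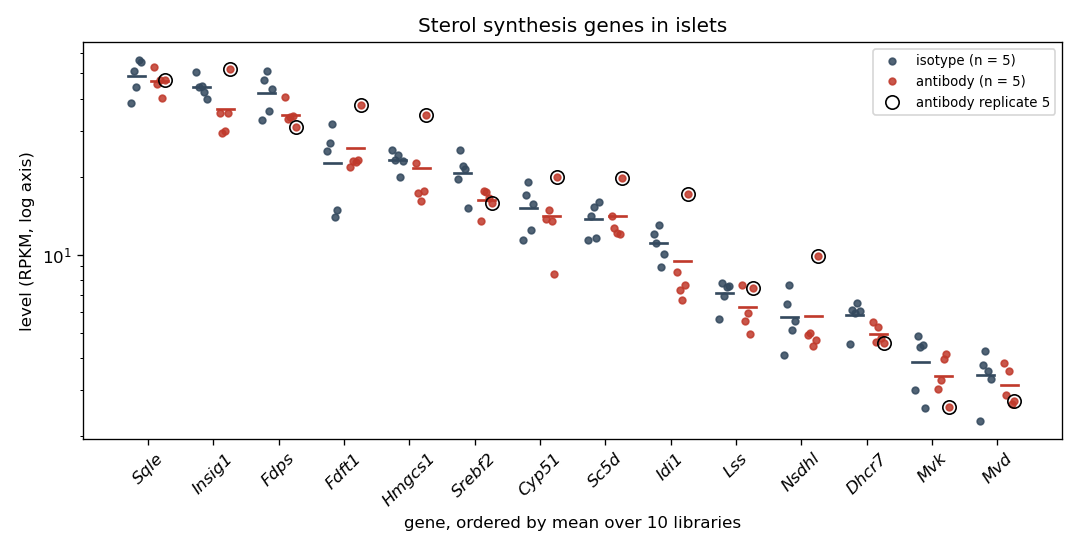
RPKM (log axis) of the 14 sterol genes in each library, isotype (dark) and antibody (red), with short lines at the group means and black rings around antibody replicate 5. The ringed library is the highest of all 10 for Insig1, Fdft1, Hmgcs1, Cyp51, Sc5d, Idi1 and Nsdhl, while the other antibody libraries lie among or below the isotype libraries.

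Promoter windows, from 250 bases before to 50 after each gene start, were matched in RefSeq (GRCm38.p6) for 20 of the 26 genes; Sqle, Fdft1, Fdps, Scd1, Scd2 and Fads1 were not matched. The 250 bases before the start are shown for Hmgcs1, the matched gene with the full sterol response element, for Insig1 and Idi1, the sterol genes that differed most once antibody replicate 5 was left out, and for Acly, the fatty acid gene whose groups did not overlap. Capitals mark the sterol response element TCACNCCAC or its core CACNCCAC, the E-box CACGTG, the CCAAT box and the GC box GGGCGG, each searched on both strands; the core lies within the longer form. Hmgcs1 was read on the plus strand of chr13:119690101-119690350, Insig1 on the plus strand of chr5:28071162-28071411, Idi1 on the plus strand of chr13:8885356-8885605 and Acly on the minus strand of chr11:100528001-100528250.
Hmgcs1: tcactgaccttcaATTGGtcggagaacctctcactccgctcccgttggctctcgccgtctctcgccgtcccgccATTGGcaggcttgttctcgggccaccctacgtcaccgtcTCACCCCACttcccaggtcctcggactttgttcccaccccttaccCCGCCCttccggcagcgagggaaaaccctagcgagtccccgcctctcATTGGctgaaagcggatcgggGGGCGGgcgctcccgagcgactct
Insig1: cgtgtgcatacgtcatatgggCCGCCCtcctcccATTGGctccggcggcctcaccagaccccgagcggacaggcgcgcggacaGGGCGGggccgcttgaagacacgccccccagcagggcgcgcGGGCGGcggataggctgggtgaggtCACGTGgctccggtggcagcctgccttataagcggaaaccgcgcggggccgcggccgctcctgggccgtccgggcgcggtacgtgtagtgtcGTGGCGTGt
Idi1: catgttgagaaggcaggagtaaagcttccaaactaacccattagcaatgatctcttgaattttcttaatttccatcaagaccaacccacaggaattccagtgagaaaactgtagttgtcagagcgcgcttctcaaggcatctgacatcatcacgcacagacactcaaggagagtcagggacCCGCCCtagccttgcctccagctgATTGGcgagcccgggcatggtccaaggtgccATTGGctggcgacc
Acly: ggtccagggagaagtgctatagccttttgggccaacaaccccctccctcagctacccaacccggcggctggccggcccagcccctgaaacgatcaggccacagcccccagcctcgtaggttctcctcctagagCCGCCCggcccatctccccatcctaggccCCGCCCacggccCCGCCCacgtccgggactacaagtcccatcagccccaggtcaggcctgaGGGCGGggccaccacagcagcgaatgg

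In Hmgcs1 the 9 bases of the sterol response element began 137 bases before the start, and in Insig1 the core began 9 bases before it, on the minus strand, with an E-box 101 bases before the start. Over the whole windows the full element was found in 1 of 11 matched sterol genes and 0 of 9 matched fatty acid genes, beside 1.44% of all 27025 genes with a window. Its core was found in 2 and 0, beside 7.12%. All 11 matched sterol genes held a CCAAT box and all 11 a GC box, beside 41.1% and 38.2% of all genes; for the fatty acid genes the counts were 6 and 5 of 9. The E-box stood in 3 sterol genes (Insig1, Sc5d and Dhcr7) and in 1 fatty acid gene (Elovl5), beside 8.09%. Member windows were richer in G and C than others, with a median of 64.0% for sterol and 63.8% for fatty acid genes beside 52.7% for all 32851 windows, and Dhcr7 (3 windows), Srebf1 (3) and Me1 (2) had more chances of a match. A match is a run of letters and no measured binding, and a missing match says only that these letters are not in the window.

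**Figure D3:**
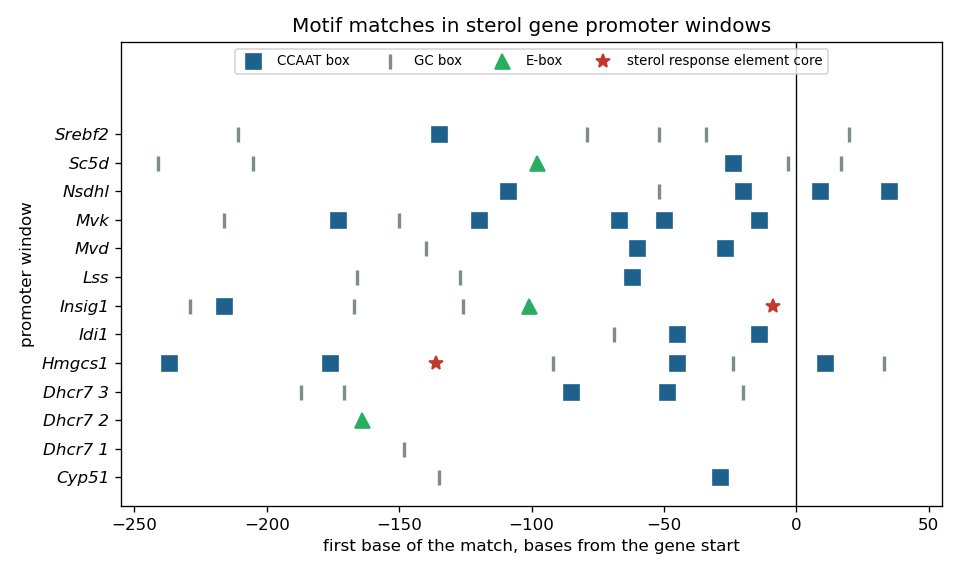
First base of each motif match, in bases from the gene start (horizontal axis, 0 is the start), in the 13 promoter windows of the 11 matched sterol genes; squares are CCAAT boxes, bars GC boxes, triangles E-boxes and stars the core of the sterol response element. The stars are in Hmgcs1 and Insig1, and every gene has at least 1 square and 1 bar.

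Srebf2 encodes the SREBP that acts mainly on these genes (Entrez 20788, chromosome 15, 82147269 to 82205379). It was at 13.5, 17.6, 17.5, 16.5 and 15.8 RPKM in antibody replicates 1 to 5 and at 19.5, 25.3, 22.0, 21.3 and 15.2 RPKM in isotype replicates 6 to 10. Isotype replicate 10 lay among the antibody libraries and the other 4 isotype libraries above all of them. The log2 fold change was -0.33 (SE 0.14, 95% interval -0.63 to -0.03, limma adjusted p = 0.649). The unadjusted limma p was 0.0329 and the exact permutation p was 0.0476, where 5 against 5 allows no less than 0.00794. With median centring, quantile normalization and trimmed mean scaling the unadjusted limma p was 0.130, 0.117 and 0.102.

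Insig1 encodes the retention protein that is itself an SREBP target (Entrez 231070, chromosome 5, 28071412 to 28078662). The antibody libraries 1 to 5 read 35.2, 29.4, 30.1, 35.1 and 52.2 RPKM and the isotype libraries 6 to 10 read 50.9, 44.2, 44.9, 42.3 and 39.8 RPKM. Antibody replicates 1 to 4 were below every isotype library, and replicate 5 was above every one. The log2 fold change was -0.31 (SE 0.15, 95% interval -0.64 to 0.02, limma adjusted p = 0.733; exact permutation p = 0.0952). Without antibody replicate 5 it was -0.45 (limma adjusted p = 0.148), and with limma's array weights, which give libraries that stand apart less influence, it was -0.48 (limma adjusted p = 0.0366). The latter was the single call of any member in any of the 22 alternative settings. Array weights called 121 of all 13450 tested genes higher and 61 lower, against 53 and 2 in the main fit.

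Hmgcs1, the cytosolic HMG-CoA synthase that makes the substrate of the rate-limiting reductase (Entrez 208715, chromosome 13, 119690351 to 119708260), was at 22.6, 17.3, 16.1, 17.6 and 34.7 RPKM in the antibody libraries. In the isotype libraries it was at 25.3, 23.2, 24.2, 20.0 and 23.0 RPKM. The antibody spread took in the whole isotype range, again through replicate 5, and the log2 fold change was -0.15 (SE 0.19; adjusted p = 0.912, limma). Without that library it was -0.33 (adjusted p = 0.447, limma). Exons of Gm48342 lie opposite 12.1% of its exon bases. Idi1, isopentenyl diphosphate isomerase (Entrez 319554, chromosome 13, 8885606 to 8892396), read 8.55, 7.32, 6.67, 7.66 and 17.2 RPKM with the antibody. The isotype values were 12.0, 11.1, 13.02, 8.98 and 10.04 RPKM. Antibody replicates 1 to 4 lay below all 5 isotype libraries and replicate 5 above them. Its log2 fold change was -0.28 (SE 0.22; adjusted p = 0.859, limma), and without replicate 5 it was -0.51 (adjusted p = 0.164, limma). With acinar markers as a covariate the fold was -0.13 for Idi1 and -0.04 for Hmgcs1. Of the Idi1 50-base stretches 21.3% recur in other annotated genes.

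Fdps, which makes farnesyl diphosphate, was at 34.7 ± 3.54 against 42.1 ± 7.59 RPKM (SD, n = 5 each), giving a log2 fold change of -0.26 (SE 0.13; adjusted p = 0.763, limma). Of its transcript stretches of 50 bases 80.6% also occur in other annotated genes, so its value is uncertain as that of a single gene. Fdft1, squalene synthase, where the path to sterols branches off, had the largest positive fold of the list (0.23, SE 0.24; adjusted p = 0.888, limma). It was at 21.7, 23.0, 22.8, 23.3 and 37.7 RPKM with the antibody and at 25.2, 26.98, 31.8, 14.0 and 14.8 RPKM with the isotype control. Isotype replicates 9 and 10 were the lowest and antibody replicate 5 the highest library. The fold was 0.08 without antibody replicate 5, 0.08 without isotype replicate 9, 0.10 without isotype replicate 10 and 0.42 with the mean log2 level of the acinar markers as a covariate (adjusted p = 0.446, limma). The kit did not mark strand, and 18.3% of the Fdft1 exon bases lie opposite exons of the cathepsin gene Ctsb, so reads of the pair cannot be told apart there.

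Past squalene, Sqle was at 46.6 ± 4.63 with the antibody against 49.1 ± 7.60 RPKM (SD, n = 5 each), giving a log2 fold change of -0.06 (95% interval -0.34 to 0.21). The lanosterol synthase gene Lss stood at 6.30 ± 1.18 against 7.09 ± 0.88 RPKM and Cyp51, the lanosterol demethylase, at 14.1 ± 4.08 against 15.1 ± 3.19 RPKM (SD, n = 5 each). Nsdhl, of the demethylation complex, had close group means at 5.77 ± 2.29 and 5.76 ± 1.35 RPKM, but antibody replicate 5 alone was at 9.85 RPKM and the other 4 antibody libraries between 4.43 and 4.999. In all of these the ranges of the groups overlapped. Sc5d, the desaturase of the sterol ring, was at 14.1 ± 3.27 against 13.7 ± 2.07 RPKM. Dhcr7, which reduces 7-dehydrocholesterol to cholesterol, was at 4.94 ± 0.42 against 5.83 ± 0.75 RPKM (log2 fold change -0.21, 95% interval -0.46 to 0.04, limma adjusted p = 0.766). Mvk (3.40 ± 0.64 against 3.85 ± 1.01 RPKM) and Mvd (3.12 ± 0.53 against 3.43 ± 0.73 RPKM) had log2 fold changes of -0.14 and -0.11. The interval for the log2 fold change of Cyp51 reached from -0.58 to 0.33 and that of Nsdhl from -0.50 to 0.44, so differences of the size measured for Srebf2 or Insig1 lie within them. Over the alternative settings the log2 fold change ran from -0.34 to -0.17 for Fdps, -0.15 to 0.01 for Sqle, -0.28 to -0.09 for Lss, -0.29 to -0.14 for Dhcr7, -0.26 to -0.06 for Mvk and -0.23 to 0.01 for Mvd, with no call.

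Antibody replicate 5 was the highest of all 10 libraries in 7 of the 14 sterol genes (Hmgcs1, Idi1, Fdft1, Cyp51, Insig1, Nsdhl and Sc5d), beside 16.5% of all tested genes. Both this library and this group of genes were singled out after their values were seen. Relative to the mean of the other 4 antibody libraries, replicate 5 was 2.27-fold higher for Idi1, 2.07-fold for Nsdhl, 1.88-fold for Hmgcs1, 1.66-fold for Fdft1, 1.61-fold for Insig1, 1.58-fold for Cyp51 and 1.56-fold for Sc5d. For the other 7 sterol genes the ratio ran from 0.72 for Mvk to 1.24 for Lss, with Sqle at 1.02, Srebf2 at 0.97 and Fdps at 0.87. The median log2 deviation of this library from the others of its group was 0.46 over the sterol genes, -0.15 over the fatty acid genes and -0.05 over all tested genes. It also had the highest summed acinar markers of the antibody group (12580 RPKM, the others 3965 to 8461), the lowest beta cell markers (199184 RPKM, the others 280980 to 356419), the highest markers of dividing cells (19.1 RPKM, the others 3.93 to 13.4) and the greatest depth. With the acinar covariate the sterol median between groups was -0.14, beside -0.08 over all genes. A median between groups does not test the deviation of 1 library. With the covariate the fold was higher for each of the 7 genes above (Idi1 from -0.28 to -0.13, Fdft1 from 0.23 to 0.42). It was lower for Sqle (from -0.06 to -0.12), Lss, Dhcr7, Mvd and Mvk. The part of acinar cells, of the other markers and of depth in the sterol values of this library was not tested.

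Without antibody replicate 5 the median log2 fold change of the sterol genes was -0.23, beside -0.06 over all genes tested then, with 13 of 14 below 0. Idi1 and Insig1 no longer overlapped between groups, beside 1.67% of tested genes with the antibody libraries below and 1.91% with them above. At an unadjusted p under 0.05, limma counted 4 sterol genes lower (Hmgcs1, Idi1, Insig1 and Srebf2), beside 4.33% of the genes tested. Hmgcs1, Idi1 and Insig1 were among the genes in which the omitted library was highest, so lower folds without it follow from that choice. The 1.67%, 1.91% and 4.33% are shares of genes not chosen in that way. No member passed after adjustment over all genes (for the sterol genes, limma adjusted p from 0.148 for Insig1 to 0.957 for Mvk). In the isotype group, replicate 6 was the lowest in 8 of 14 sterol genes, beside 4664 of all 13450 tested genes. Replicate 8 was the highest of that group in 6 sterol genes, beside 13.7% of all tested genes. From the others of its group replicate 6 had a median log2 deviation of -0.36 over the sterol and -0.38 over the fatty acid genes. Over all tested genes that deviation was -0.09. Without replicate 6 the sterol median was -0.22, with 13 of 14 genes below 0 and 3 lower at an unadjusted limma p under 0.05. All 12 fatty acid genes were then below 0 and 5 were lower at that p, beside 68.8% and 6% of all genes tested.

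**Figure D4:**
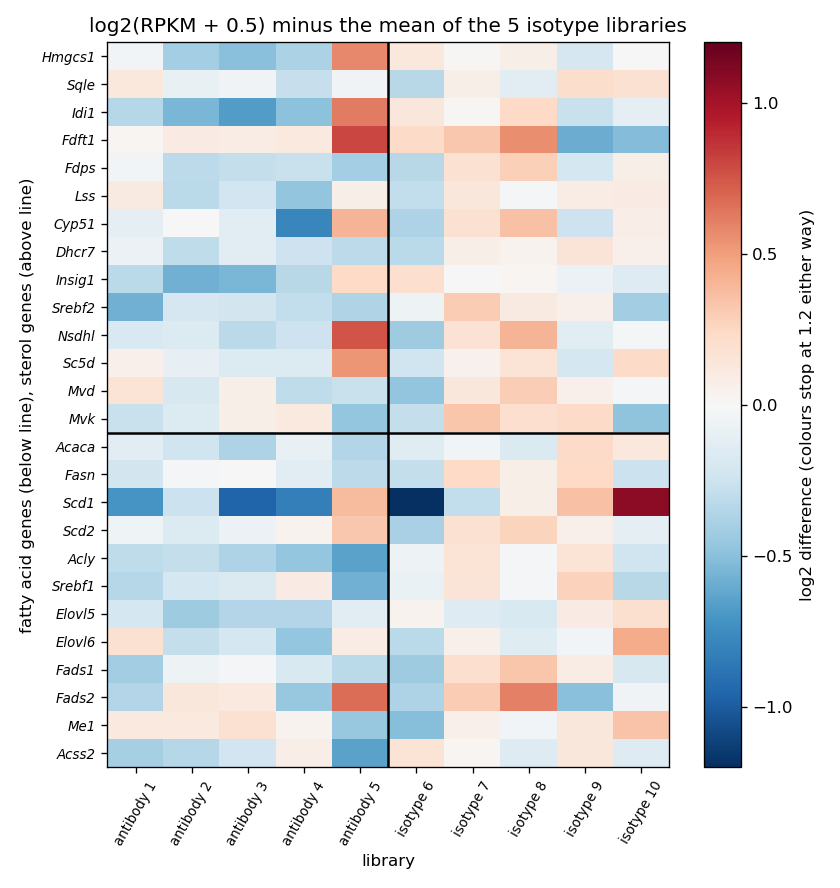
Log2(RPKM + 0.5) of each gene (rows) in each library (columns) minus the mean of the 5 isotype libraries; red is higher and blue lower. The antibody replicate 5 column has both colours in both lists: red for Hmgcs1, Idi1, Fdft1, Cyp51, Nsdhl and Sc5d but blue for Mvk, Fdps and Srebf2, and blue for Acly, Srebf1, Me1 and Acss2 but red for Fads2, Scd1 and Scd2.

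The fatty acid genes were led by Acly, ATP citrate lyase, which turns cytosolic citrate into the acetyl-CoA used for both fatty acids and sterols (Entrez 104112, chromosome 11, 100476352 to 100528000). Acly was at 650.4 ± 75.7 RPKM (SD, n = 5) in isotype islets, and its mean over all 10 libraries exceeded that of 99.4% of all tested genes. Elovl5, the elongase of polyunsaturated chains (49.99 ± 5.66), and the stearoyl-CoA desaturase gene Scd2 (35.5 ± 6.25) followed. Below them came Srebf1 (21.8 ± 3.54), the malic enzyme gene Me1 (15.1 ± 3.14) and the fatty acid synthase gene Fasn (15.0 ± 2.71). The desaturase genes Fads1 (9.74 ± 2.10) and Fads2 (6.34 ± 2.22), the acetyl-CoA synthetase gene Acss2 (9.56 ± 1.06), the acetyl-CoA carboxylase gene Acaca (6.83 ± 0.91), the elongase gene Elovl6 (5.21 ± 1.203) and Scd1 (5.07 ± 3.06) were all under 10 RPKM. In the order of means over the 10 libraries, the ranges of Acly and Elovl5, and those of Scd2 and Srebf1, did not overlap, while all other neighbours did. Me1 and Fasn, Fads1 and Acss2, and Fads2 and Acaca each stood in either order, with the first above the second in 5 of 10 libraries. Antibody replicate 5 was the lowest of the 10 libraries in 4 of the 12 genes (Acly, Fasn, Srebf1 and Acss2; 28.4% of all tested genes) and isotype replicate 10 the highest in 4 (Elovl5, Elovl6, Scd1 and Me1; 26.2% of all). Without antibody replicate 5 the median log2 fold change was -0.18, 11 of 12 lay below 0, and Acly and Elovl5 did not overlap between groups, beside 64.9% of tested genes below 0 and 1.67% with every antibody library below.

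**Figure D5:**
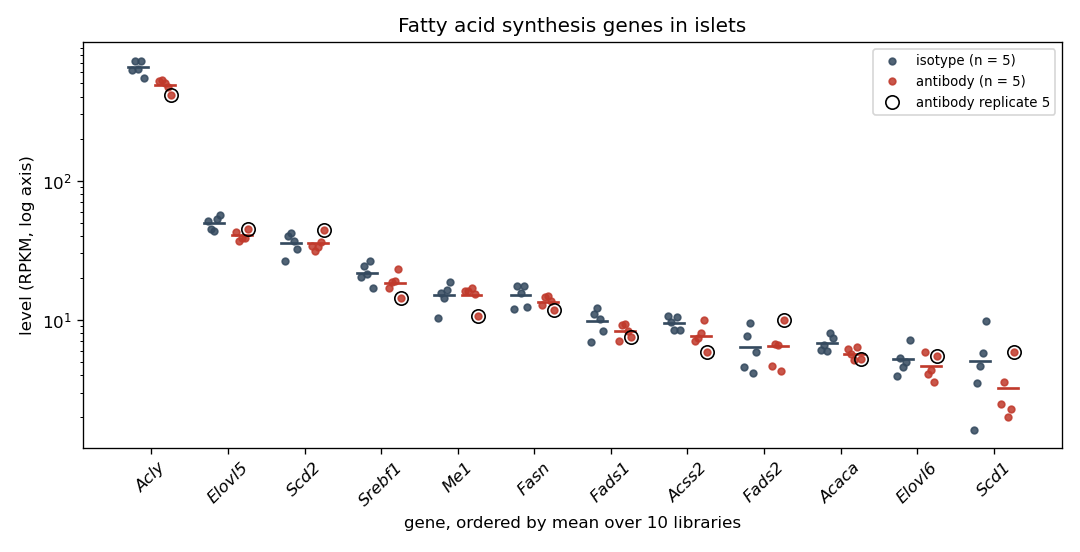
RPKM (log axis) of the 12 fatty acid genes in each library, isotype (dark) and antibody (red), with short lines at the group means and black rings around antibody replicate 5. Acly lies more than an order of magnitude above the others in mean level, its 5 antibody libraries all below its 5 isotype libraries, and Scd1 has the widest spread.

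Acly was at 522, 529, 502, 470.1 and 414 RPKM in antibody replicates 1 to 5 and at 619.7, 725, 636, 725 and 547 RPKM in isotype replicates 6 to 10. The highest antibody library (529) was below the lowest isotype library (547). The log2 fold change was -0.41 (SE 0.13, 95% interval -0.69 to -0.14), 0.751 times the isotype level. Its limma adjusted p over all genes was 0.375, the unadjusted p 0.00706 and its exact permutation p 0.00794, the least possible with these group sizes. It ranged from -0.47 to -0.34 over the 22 alternative settings, with limma adjusted p down to 0.0538 with array weights. Beta cell markers had a median log2 fold change of -0.44 in the same libraries, and their summed level ran from 199184 to 356419 RPKM with the antibody and from 298632 to 472621 RPKM with the isotype control. Their part in the Acly value was not tested.

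Acss2, which makes acetyl-CoA from acetate, was at 7.09, 7.398, 8.04, 10.1 and 5.91 RPKM with the antibody and 10.7, 9.68, 8.47, 10.5 and 8.48 RPKM with the isotype control (log2 fold change -0.31, SE 0.14; adjusted p = 0.693, limma). Antibody replicate 4 lay inside the isotype range and the other 4 below it. For Acss2 the unadjusted limma p was 0.0444. With median centring, quantile normalization and trimmed mean scaling it was 0.127, 0.137 and 0.103. Exons of other genes lie opposite 9.12% of its exon bases. Acaca, which makes malonyl-CoA and commits acetyl-CoA to fatty acids, was at 5.70 ± 0.55 against 6.83 ± 0.91 RPKM (SD, n = 5 each), giving a log2 fold change of -0.24 (SE 0.11; adjusted p = 0.725, limma; exact permutation p = 0.0476). Of its 50-base stretches 55.4% recur in the annotated gene Gm5182. Fasn, which assembles the chain, was at 13.5 ± 1.27 against 15.0 ± 2.71 RPKM, a log2 fold change of -0.14 (95% interval -0.42 to 0.15). Me1, a source of NADPH for the synthase, was at 15.0 ± 2.48 against 15.1 ± 3.14 RPKM (log2 fold change 0.00, 95% interval -0.37 to 0.37). Antibody replicate 5 (10.7 RPKM) and isotype replicate 6 (10.3 RPKM) were its lowest libraries, and 24.6% of its 50-base stretches recur in other genes.

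Srebf1, whose product SREBP-1c acts on these enzymes, was at 17.0, 18.7, 19.2, 23.2 and 14.4 RPKM in the antibody libraries. The isotype libraries read 20.4, 24.2, 21.3, 26.3 and 17.0 RPKM, and the ranges overlapped. Its log2 fold change was -0.24 (SE 0.15, 95% interval -0.56 to 0.08, limma adjusted p = 0.811). The table gives 1 value per gene, so the transcripts of the SREBP-1a and SREBP-1c forms are not separated. Over the alternative settings the log2 fold change ran from -0.32 to -0.15 for Srebf1, lowest in size without antibody replicate 5, and from -0.21 to -0.06 for Fasn, with no call.

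Among the genes that shape the finished chain, Elovl5 was at 42.8, 36.8, 39.0, 38.8 and 45.2 RPKM with the antibody and at 51.3, 44.7, 43.8, 53.3 and 57.0 RPKM with the isotype control. Antibody replicate 5 alone reached into the isotype range, above replicates 7 and 8. The log2 fold change was -0.30 (SE 0.11, 95% interval -0.53 to -0.06, limma adjusted p = 0.549; exact permutation p = 0.0238). Elovl6, which extends palmitate, was at 4.67 ± 0.96 against 5.21 ± 1.203 RPKM (SD, n = 5 each), giving a log2 fold change of -0.14 (SE 0.17); without isotype replicate 10 it was -0.03 and without isotype replicate 6 it was -0.22. The delta-desaturase genes of polyunsaturated chains, Fads1 and Fads2, had log2 fold changes of -0.20 (SE 0.15) and 0.02 (SE 0.25). For Fads1 it was -0.31 when isotype replicate 6 was left out and -0.07 with the ductal covariate. Fads2 was highest in antibody replicate 5 (9.94 RPKM) and isotype replicate 8 (9.50 RPKM) and lowest in isotype replicate 9 (4.15 RPKM).

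The stearoyl-CoA desaturases, which put the first double bond into saturated chains, differed in level and spread. Scd2 was at 33.8, 31.3, 33.5, 36.2 and 44.1 RPKM with the antibody and 26.6, 40.0, 42.3, 36.6 and 32.2 RPKM with the isotype control. Its log2 fold change was 0.02 (SE 0.14, 95% interval -0.29 to 0.33). Scd1 was at 2.50, 3.59, 2.02, 2.28 and 5.87 RPKM with the antibody and 1.63, 3.50, 4.64, 5.77 and 9.81 RPKM with the isotype control. The highest Scd1 value, in isotype replicate 10, was 6.04 times the lowest, in isotype replicate 6, the widest ratio among the 26 genes and within 1 group. The log2 fold change of -0.47 (SE 0.38, 95% interval -1.30 to 0.35, limma adjusted p = 0.862) was the lowest of the 26 and also the least precise. It was -0.78 without isotype replicate 6 and -0.21 without isotype replicate 10, neither of them a call. The ductal covariate gave -0.20. Scd1 and Scd2 share 4.66% and 4.01% of their 50-base stretches with other genes, among them each other, Scd3 and Scd4.

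The other genes of these pathways are given by lists set beside the members. Of 10 further sterol enzymes none passed and all 10 had negative folds, with a median of -0.17 and 2 lower at an unadjusted p under 0.05. Over all tested genes 66.5% had negative folds and 4.18% were lower at that p. After median centring 6 of the 10 lay below 0 (median -0.09). Of the 10, the methylsterol oxidase gene Msmo1 had a log2 fold change of -0.27 (SE 0.14). In the SREBP machinery of 9 genes, 8 folds were negative with a median of -0.09 and none passed, and median centring left 6 negative (median -0.01). Its lowest unadjusted p values were those of Insig2 (-0.27, SE 0.17), the liver X receptor gene Nr1h3 (-0.16, SE 0.14) and the escort gene Scap (-0.17, SE 0.15). Sterol uptake, transport and export (11 genes, 7 negative, none passing, 1 lower at an unadjusted p under 0.05) had a median of -0.03, which turned to 0.05 after median centring with 4 negative. Npc2, which hands cholesterol out of lysosomes, was at 121 ± 31.7 against 92.9 ± 9.94 RPKM (log2 fold change 0.33, SE 0.19).

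For fatty acid enzymes outside the members, 18 of 22 genes passed the filter on low values, none passed the test, and 14 folds were negative with a median of -0.08. The share of negative folds over all tested genes was 66.5%. After median centring 9 of the 18 were negative. The very long chain elongase gene Elovl4 (-0.39, SE 0.14, limma adjusted p = 0.576) and the Fads2 relative Fads3 (-0.69, SE 0.32, limma adjusted p = 0.717) had the smallest unadjusted p. After these came Hacd2, a dehydratase of chain elongation (-0.17, SE 0.11). Of 6 NADPH-supplying genes none passed and all 6 had negative folds (median -0.13; 4 negative after median centring), among them Me2 (-0.19, SE 0.14), the glucose-6-phosphate dehydrogenase gene G6pdx (-0.14, SE 0.13) and the isocitrate dehydrogenase gene Idh1 (-0.14, SE 0.14). In glycerolipid synthesis, none passed and 2 of 7 genes were lower at an unadjusted p under 0.05, beside 4.18% of all tested genes. They were Dgat1, which completes triglycerides (-0.28, SE 0.12, limma adjusted p = 0.654), and Agpat2, which makes phosphatidic acid (-0.30, SE 0.13, limma adjusted p = 0.673). Dgat2 had a fold of 0.15 (SE 0.17), and the list median of -0.02 turned to 0.05 after median centring.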

How the data were processed

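RNA was measured in 10 islet libraries, 5 per group, grouped by their titles. A density gradient gave the islets and a Nextera XT kit, which does not mark strand, the libraries, per the labels' protocols. The authors deposited 1 table of RPKM values. CASAVA 1.8.2, FastQC and the builds GRCm38 and mm10 are named, without roles, in the submitters' processing notes; aligner, counter and annotation: not given in the sources used here. Depth was estimated from the steps of low values in genes whose RefSeq-linked GENCODE transcripts share 1 length; 70.9% to 76.1% of them lay within 0.1 of a whole read. That is too few for a count model, and none was fitted.

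Values were used as log2(RPKM + 0.5) for the 13450 genes whose mean reached 0.5 RPKM; such folds understate changes of low genes. Groups were compared with limma 3.58.1 (variance trend, R 4.3.3) with Benjamini-Hochberg adjustment, and single values by a two-sided exact permutation test over 252 assignments. The limma step was checked on simulated data. Python 3.11.15 made the descriptions and plots. Named genes are all members, and from each other list the called genes and up to 3 with the smallest p; some single genes are not reported here. The members and lists were chosen with earlier results of these data known. Alternatives were other pseudocounts, filters, scalings and variance settings, acinar and ductal covariates, an exact test for each gene and 1 library left out in turn.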

Additional observations from a re-analysis of the deposited data

Results flagged for a closer look

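In 52 groups of 5 libraries (26 genes in each arm) 1 library lay far from the other 4 in 7. The rule used marks about 1 in 20 by chance for independent groups, but these genes share the same libraries. The share of such groups over all tested genes was not computed. Antibody replicate 5 was the highest of the 10 libraries in 16.5% and the lowest in 28.4% of all tested genes. In 5 of the 7 groups this library was far above the rest: Idi1 at 17.2 RPKM (nearest library 8.55), Fdft1 at 37.7 (nearest 23.3), Insig1 at 52.2 (nearest 35.2), Nsdhl at 9.85 (nearest 4.999) and Sc5d at 19.8 (nearest 14.1). The same library was far below the rest for Me1, at 10.7 RPKM (nearest 15.2). In the isotype group Dhcr7 was far lower in replicate 6, at 4.53 RPKM (nearest 5.96).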

How the results depend on the processing

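Counts of called members stayed at 0 in both directions for both lists under the 22 alternatives, except that array weights gave 1 sterol gene called lower, Insig1. Over all 13450 tested genes that setting called 121 higher and 61 lower, against 53 and 2 in the main fit. With 1 library left out at a time no member was called; the sterol median ran from -0.23 (without antibody replicate 5) to -0.09 (without antibody replicate 4) and the fatty acid median from -0.26 (without isotype replicate 6) to -0.17 (without isotype replicate 9). A minimum mean of 5 RPKM left out Mvd, Mvk, Scd1 and Elovl6. Folds near 0 changed sign, all without a call. Median centring gave 0.0126 for Sqle and 0.0446 for Nsdhl, quantile normalization 0.00805 and 0.0284, and trimmed mean scaling 0.0223 for Nsdhl. The acinar covariate gave 0.0893 for Nsdhl and -0.0854 for Me1. The ductal covariate gave 0.0488 for Cyp51, 0.0698 for Nsdhl and 0.00827 for Mvd. Array weights gave -0.0962 for Sc5d, -0.167 for Scd2 and -0.0799 for Fads2. With 1 library left out the log2 fold change ran from -0.259 to 0.0392 for Cyp51, -0.228 to 0.0696 for Nsdhl, -0.0884 to 0.0932 for Sc5d, -0.0800 to 0.0840 for Scd2, -0.138 to 0.176 for Fads2 and -0.124 to 0.116 for Me1. For these changes of sign the cause was not tested. The exact permutation test per gene, whose smallest p is 0.00794, called no member after adjustment. No paired analysis was possible because the labels tie no antibody library to an isotype library.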
